A study of Homo sapiens with 12 samples.

Results

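The genes described here are transcriptional targets of p53, taken from a list of 37 symbols, of which 35 were matched in the count table of 14438 genes. The other 2, *GDF15* and *TRIM22*, were not analysed here. All 35 passed into the fit of 14263 genes. The list was drawn up with earlier results of these counts known, although the rule itself uses only the symbols. The counts of members below are therefore a description of this list, read beside the share over all genes, and are not support for a change of the pathway.

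The tumour suppressor p53 is a transcription factor that binds a DNA element made of a pair of decamers and switches on genes for cell cycle arrest, apoptosis and DNA repair after DNA damage or other stress. Its level and activity are held down by MDM2, a ubiquitin ligase that is itself a p53 target, so that the pathway contains a feedback loop. In HEK293T, a human embryonic kidney line that carries adenoviral E1 genes and the SV40 large T antigen, viral proteins bind p53 and restrain it.

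RNA was sequenced from 4 HEK293T lines, each infected with lentivirus carrying an *EZH2* coding sequence and selected with blasticidin. EZH2 is the methyltransferase of polycomb repressive complex PRC2, which places the repressive mark H3K27me3. The introduced alleles were wild type (EZH2 WT), Y641F, A677G and the double change H689A/F667I, with 3 replicates each. The study describes Y641F and A677G as gain-of-function (GOF) and H689A/F667I as loss-of-function (LOF). Each genotype is a single selected line, so that the introduced allele and other differences between the lines cannot be told apart. The study calls its replicates biological but does not say whether they were separate cultures, and the p-values measure only the spread between these samples.

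Library totals ran from 32137700 to 44562413 counts. *EZH2* itself, where introduced and endogenous transcripts cannot be told apart, stood at 158 ± 4.32 CPM in the WT line (mean ± SD, n = 3, where CPM is the count relative to the TMM-scaled library total), at 218 ± 9.61 with Y641F, at 173 ± 8.57 with A677G and at 208 ± 2.03 in the LOF line. Of the kidney and epithelial markers, 10 of 12 were tested, with a summed level of 271 to 305 CPM over all samples, and *PAX8* was not analysed here. Of the blood and fibroblast markers, 4 of 10 were tested, with a sum of 8.36 to 13.7 CPM, and *PTPRC*, *CD3E*, *CD14*, *HBB*, *COL1A2* and *DCN* were not analysed here. The neural markers, 7 of 8 tested, summed to 509 to 530 CPM in the WT line, 354 to 396 with Y641F, 319 to 343 with A677G and 464 to 467 in the LOF line. Their sums were lower than in WT in both GOF lines and, by less, in the LOF line. Their part in the p53 target results below was not tested. Replicate 1 of EZH2 Y641F stood apart from the other samples, with a score of -19.2 on the second principal component of all genes, against -10.1 to 10.6 in the rest. Counts of members called in the comparisons that use EZH2 Y641F are given with and without it.

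DNA elements that match the p53 consensus are shown for some of the members that have one. Matches were also found at *CCNG1*, *BTG2*, *SPATA18*, *FAS*, *TNFRSF10B* and *RRM2B*, and another at *EDA2R*, and these are not shown. The sequences were read from hg38 by a search within 2.5 kb to each side of the start of each gene's canonical GENCODE transcript. A match was a 20-base run that holds the p53 response element with no spacer between the decamers, with the C and G core of each decamer fixed and at most 2 mismatches elsewhere. The consensus reads the same on both strands. Each is written 5′ to 3′ on the strand of its gene, and the capitals mark the 4-base core of each decamer.
CDKN1A: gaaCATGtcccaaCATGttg
DDB2: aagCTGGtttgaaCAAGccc
BAX: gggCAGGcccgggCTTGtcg
AEN: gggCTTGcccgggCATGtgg
EDA2R: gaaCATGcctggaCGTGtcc
PLK2: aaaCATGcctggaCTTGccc
MDM2: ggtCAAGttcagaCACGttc
PMAIP1: gggCTTGtttaccCAAGtct
ZMAT3: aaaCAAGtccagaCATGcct
GADD45A: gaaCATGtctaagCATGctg

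The element of *CDKN1A* lies upstream of its canonical start at -2256 bases, at chr6:36676449-36676468 of hg38. That of *PLK2*, at -2198 bases and chr5:58462274-58462293, and those of *PMAIP1*, at -438 bases and chr18:59899549-59899568, and *AEN*, at -24 bases and chr15:88621306-88621325, are upstream as well. The element of *DDB2* is in exon 1, at 4 bases and chr11:47214969-47214988. Those of *BAX* (chr19:48955213-48955232), *EDA2R* (chrX:66638713-66638732), *MDM2* (chr12:68808923-68808942) and *ZMAT3* (chr3:179070188-179070207) are in intron 1, at 348, 356, 756 and 1612 bases. That of *GADD45A* (chr1:67686775-67686794) is in intron 3 at 1584 bases. Of the elements shown, which have no spacer, those of *PLK2* and *ZMAT3* had 0 mismatches. With a spacer of 1 base, a further match at *DDB2* overlaps the one shown, at chr11:47214979-47214999, and has 0 mismatches.

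At least 1 such match was found near the start of 16 of the 35 members (45.7%), against 528 of 14077 genes with a position (3.75%). Within 1 kb the numbers were 10 of 35 (28.6%) and 1.30%, and with a spacer of up to 1 base 17 of 35 (48.6%) and 7.19%. Of the 18 matches at members, 12 lay in introns, 5 upstream and 1 in an exon. Known targets are named as such partly from their elements, so this share describes the list and is no finding about EZH2. A match is a run of letters, not a measured binding site, and its absence from the window says nothing about p53.

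The members differed widely in level. Per kilobase of annotated exon, *CCNG1*, which encodes cyclin G1, was highest with 123 CPM per kb over all 12 samples, followed by *TRIAP1* with 42.4, *PMAIP1* with 37.5, *MDM2* with 37.3 and *BAX* with 22.2. The lowest levels per kilobase were those of *FAS*, with 0.175, *SPATA18*, with 0.734, *PLK3*, with 0.753, and *PLK2*, with 1.44. The place of *FAS* depends on its annotated length, 29.3 kb of exon and 16484 bases in the longest transcript. Without division by length, *FAS* had 5.14 CPM over all 12 samples, above *PLK3* with 2.51, *SPATA18* with 3.65 and *TP53I3* with 4.12. Per kilobase of the longest transcript, *CCNG1*, *TRIAP1* and *PMAIP1* were again the first 3 and *FAS*, *SPATA18* and *PLK3* the last 3. On that scale *BAX*, with 42.3, came before *MDM2*, with 41.4, and *PLK2*, with 2.40, came before *EDA2R*, with 1.85, and *TP53INP1*, with 1.57. The median of the members was 6.70 CPM per kb, against 4.62 for 13916 genes with a length, and 23 of the 35 lay above the latter value.

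Comparison of the mutants with EZH2 WT asked how p53 target transcripts stand in lines with altered H3K27 methylation. Genes are called changed where the p-value of the quasi-likelihood test in edgeR, after Benjamini-Hochberg adjustment across every gene tested, lies below 0.05. Values are given with a standard error (SE), derived as the absolute log2 fold change divided by the square root of the F statistic of that test. In EZH2 A677G, 17 of the 35 members rose and 1, *PLK2*, fell, while of all genes 8.55% were called, 2.07% higher and 6.48% lower. The genes that rose there include the cell cycle inhibitor *CDKN1A*, the apoptosis genes *BAX*, *BBC3* and *AEN*, the AKT inhibitor *PHLDA3* and the DNA repair gene *DDB2*. Their log2 fold changes ran from 0.15 for *XPC* to 0.64 for *CDKN1A*. In EZH2 Y641F, 9 members rose and 1, again *PLK2*, fell, while of all genes 7.68% were called, 2.09% higher and 5.59% lower. In the LOF mutant 0 members were called, while 0.301% of all genes were. In these bulk samples, fewer cells that express a gene and less RNA per cell cannot be told apart.

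**Figure D1:**
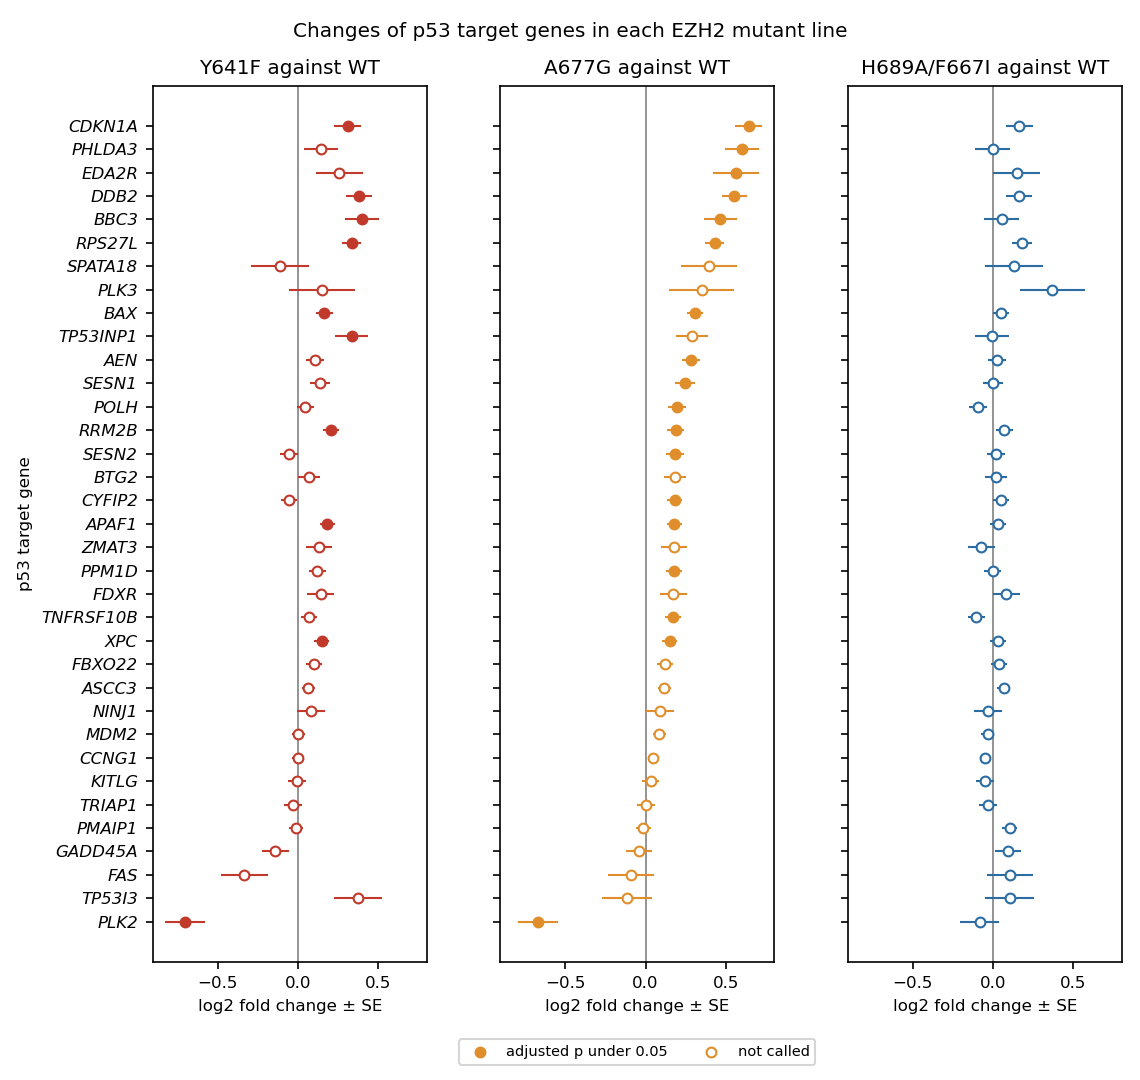
Log2 fold change against EZH2 WT (x axis) with its standard error for each of the 35 p53 target genes (y axis), in EZH2 Y641F, EZH2 A677G and the LOF mutant H689A/F667I. Filled points are called at an adjusted p-value under 0.05 and open points are not. In A677G 17 filled points lie to the right of 0 and *PLK2* to the left, in Y641F 9 and *PLK2*, and in H689A/F667I all 35 are open.

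The median log2 fold change of the members was 0.18 in EZH2 A677G, 0.11 in EZH2 Y641F and 0.03 in the LOF mutant, while the median over all genes tested was 0.00 in each. Values above 0 were found for 30 of 35 members in EZH2 A677G, 26 in EZH2 Y641F and 22 in the LOF mutant, against 51.7%, 51.0% and 51.2% of all genes. All replicates of EZH2 A677G lay above all of EZH2 WT at 24 members, where 12.5% of all genes did so. At 11 members the same held for EZH2 Y641F, with 9.28% of all genes, and at 4 members for the LOF mutant, with 7.89%. All LOF samples lay below all of EZH2 WT at 2 members, *TNFRSF10B* and *POLH*, and at 7.14% of all genes. The same held in EZH2 Y641F at 2, *PLK2* and *FAS*, beside 11.7% of all genes, and in EZH2 A677G at 1, *PLK2*, beside 14.7%. The comparisons share the EZH2 WT samples, so that a low or high WT replicate enters all of them.

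By sample, the median over the members of log2 CPM relative to the EZH2 WT mean was 0.16, 0.18 and 0.21 in replicates 1 to 3 of EZH2 A677G. In EZH2 Y641F it was -0.07, 0.10 and 0.18. Among LOF samples it was 0.01, 0.03 and 0.06, and in EZH2 WT 0.02, -0.02 and 0.02. Replicate 1 of EZH2 Y641F was thus the lowest of the 12 samples, while its other replicates lay above all WT and LOF samples. Without it, 13 members were higher and 1 lower than in EZH2 WT by the same edgeR test, and the members' median log2 fold change was 0.15. *SESN1*, *AEN*, *PHLDA3*, *EDA2R*, *TNFRSF10B* and *ZMAT3* were then called, with log2 fold changes of 0.24, 0.21, 0.31, 0.44, 0.15 and 0.26 (edgeR adjusted p = 0.00309, 8.11e-04, 0.0218, 0.0335, 0.0352 and 0.0170). *TP53INP1* and *APAF1*, with 0.32 and 0.15, were then no longer called (edgeR adjusted p = 0.0660 and 0.0553). Leaving out replicate 1, 2 or 3 of EZH2 WT left 4, 5 or 6 called members in that comparison, and leaving out replicate 2 of EZH2 Y641F left 6. For EZH2 A677G, leaving out replicate 2 of EZH2 WT left 9 members higher and 1 lower. The calls over all genes moved as well when 1 replicate was left out. They ran from 703 to 1232 in EZH2 Y641F, against 1095 with all samples, and from 825 to 1042 in EZH2 A677G, against 1219.

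**Figure D2:**
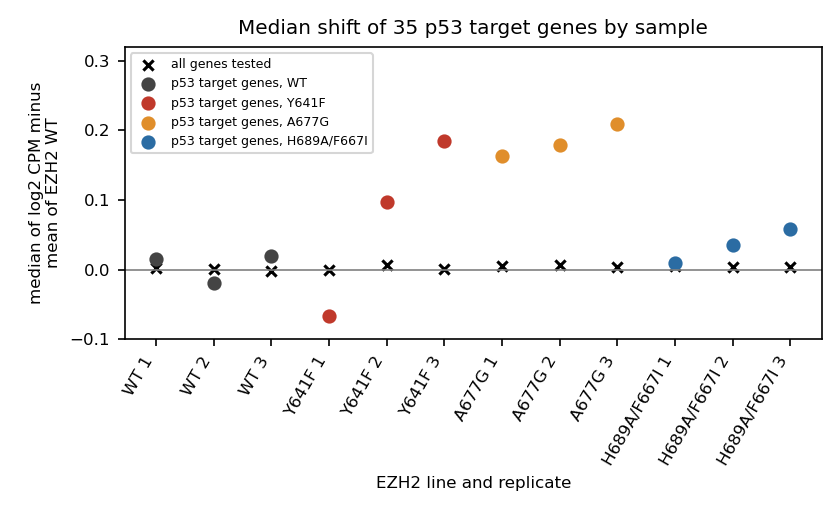
Median over the 35 p53 target genes of log2 CPM minus the mean of EZH2 WT (y axis), for each of the 12 samples (x axis), with the same median over all genes tested as crosses. The A677G samples lie between 0.16 and 0.21, Y641F runs from -0.07 to 0.18, and the medians over all genes stay near 0 in every sample.

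**Figure D3:**
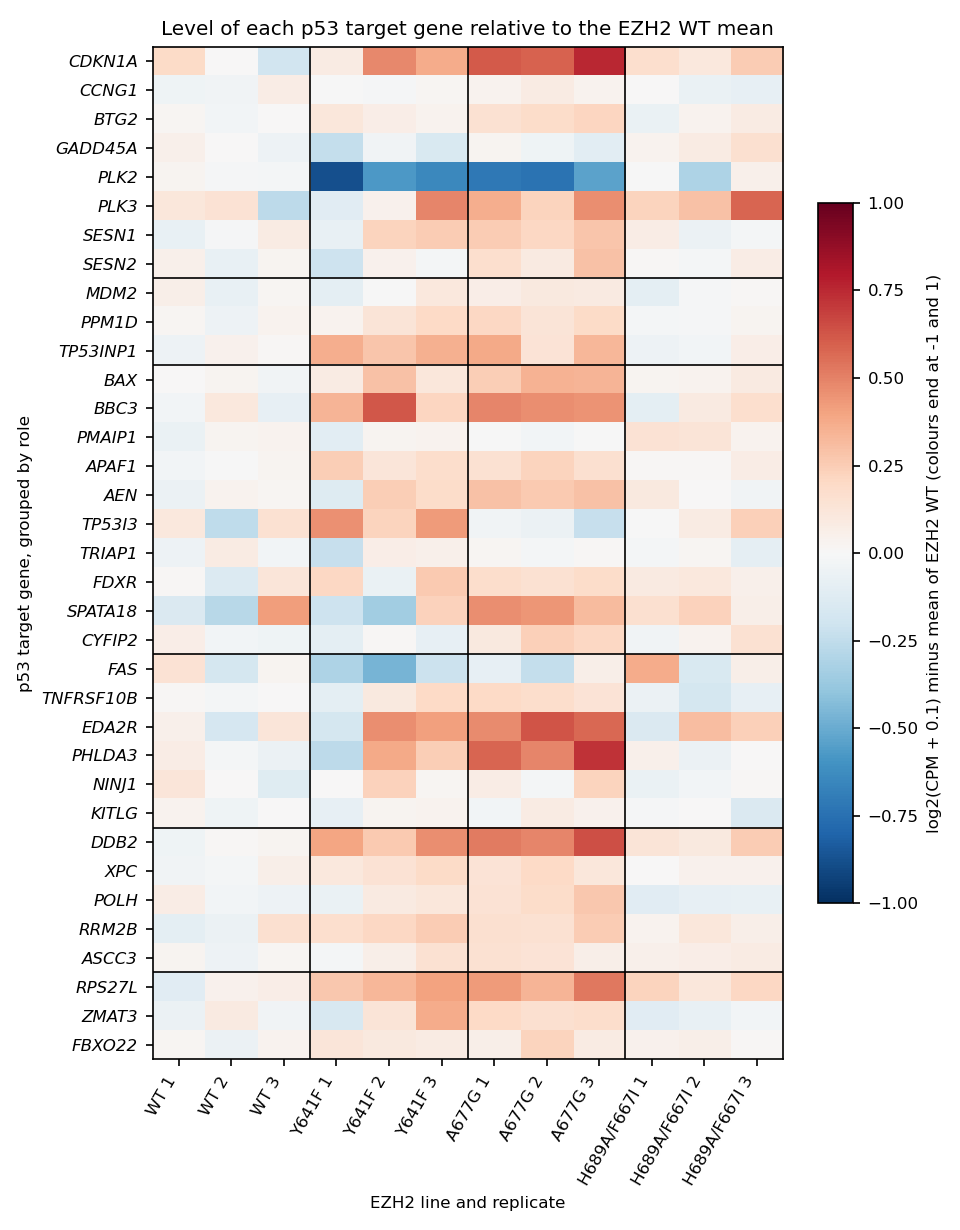
Level of each p53 target gene in each sample as log2(CPM + 0.1) minus the mean of EZH2 WT, with genes in rows grouped by role and samples in columns. Red is above the WT mean and blue below it. *CDKN1A*, *DDB2* and *RPS27L* are red in all A677G samples and *PLK2* is blue in all samples of both GOF lines.

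Among the 8 genes of cell cycle arrest and growth control, 3 rose and 1 fell in EZH2 A677G, and 1 rose and 1 fell in EZH2 Y641F. *CDKN1A* (ENSG00000124762.14, chromosome 6 of GRCh38, 36676460 to 36687337) encodes p21, the inhibitor of cyclin-dependent kinases. In replicates 1 to 3 it had 24.9, 21.9 and 19.1 CPM in the WT line, 23.2, 30.6 and 28.3 in the Y641F line, 33.4, 32.9 and 37.0 in the A677G line and 24.5, 23.5 and 26.1 in the LOF line. All A677G samples lay above every other sample, while replicate 1 of Y641F was within the range of WT. It rose by a log2 fold change of 0.64 in EZH2 A677G (SE 0.0828, edgeR adjusted p = 7.06e-07) and 0.31 in EZH2 Y641F (SE 0.0838, edgeR adjusted p = 0.0142). The call in Y641F was lost in 4 of the 6 leave-one-out fits, and held in 11 other fits. With LOF the value was 0.16 (SE 0.0852, edgeR adjusted p = 0.637).

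*PLK2* (ENSG00000145632.15, chromosome 5, 58453982 to 58460139), a polo-like kinase that acts in centriole duplication, went the other way. It had 8.58, 8.34 and 8.30 CPM in the WT line, 4.52, 5.62 and 5.34 in the Y641F line, 5.09, 4.99 and 5.76 in the A677G line and 8.36, 6.75 and 8.72 in the LOF line. Every GOF sample was below every WT and LOF sample. It fell by 0.70 on the log2 scale in EZH2 Y641F (SE 0.124, edgeR adjusted p = 1.31e-04) and by 0.67 in EZH2 A677G (SE 0.124, edgeR adjusted p = 2.12e-04). These calls were kept in all 11 other fits and in all 6 with a replicate left out. Its element has 0 mismatches to the consensus, as shown above.

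*SESN1* and *SESN2* encode sestrins, which restrain mTORC1 signalling under stress. *SESN1* had 43.6, 45.5 and 48.4 CPM in the WT line, 43.6, 53.3 and 54.5 in the Y641F line, 54.7, 52.8 and 55.5 in the A677G line and 48.1, 44 and 45.1 in the LOF line. *SESN2* had 61.0, 55.9 and 59.9 CPM in the WT line, 51.1, 60.8 and 58.0 in the Y641F line, 66.1, 62.8 and 72.3 in the A677G line and 59.3, 58.0 and 62.0 in the LOF line. For both, the A677G samples lay above the WT samples, and replicate 1 of Y641F was the lowest or level with the lowest of all samples. They rose in EZH2 A677G by log2 fold changes of 0.25 and 0.19 (SE 0.0611 and 0.0558, edgeR adjusted p = 0.00638 and 0.0274). The call of *SESN1* was lost without replicate 1 of WT, and that of *SESN2* with upper-quartile factors and in 3 of the 6 leave-one-out fits. In EZH2 Y641F the values were 0.14 and -0.06 and were not called.

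The remaining genes of this role were not called in any comparison. The cyclin G1 gene *CCNG1*, the most abundant member per kilobase, had log2 fold changes of 0.00, 0.05 and -0.05 in Y641F, A677G and the LOF mutant (SE 0.0365, 0.0365 and 0.0366). *GADD45A*, a growth arrest and DNA damage gene, had -0.14, -0.04 and 0.09, and the antiproliferative *BTG2* had 0.07, 0.18 and 0.02. *PLK3*, a kinase of the stress response, was expressed at only 1.75 to 3.23 CPM and had 0.15, 0.35 and 0.37, with standard errors of 0.202 to 0.204.

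Of the 3 genes that act back on p53, 1 rose in each GOF line. *MDM2* (ENSG00000135679.27, chromosome 12, 68808177 to 68845544) had 320, 291 and 310 CPM in the WT line, 287, 305 and 330 in the Y641F line, 322, 329 and 327 in the A677G line and 286, 304 and 308 in the LOF line. The A677G samples were above the WT samples by a narrow margin, and the other lines overlapped with WT. Its log2 fold changes were 0.00, 0.09 and -0.03 in Y641F, A677G and the LOF mutant (SE 0.0421, 0.0421 and 0.0422), and none was called (edgeR adjusted p = 0.989, 0.241 and 0.882). *PPM1D*, which encodes the phosphatase WIP1 that dephosphorylates p53, had 42.6, 40.6 and 43.2 CPM in the WT line, 43.1, 46.0 and 48.3 in the Y641F line, 48.7, 46.2 and 48.0 in the A677G line and 41.6, 41.8 and 42.8 in the LOF line. Its A677G samples were above all WT samples. It rose by 0.18 in EZH2 A677G (SE 0.0522, edgeR adjusted p = 0.0243), a call lost in 4 of the 6 leave-one-out fits.

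*TP53INP1*, whose product promotes the activating phosphorylation of p53, had 7.63, 8.13 and 7.96 CPM in the WT line, 10.2, 9.59 and 10.1 in the Y641F line, 10.3, 8.72 and 9.95 in the A677G line and 7.63, 7.74 and 8.29 in the LOF line. Both GOF lines lay above all WT and LOF samples, replicate 1 of Y641F included. It rose by 0.33 in EZH2 Y641F (SE 0.102, edgeR adjusted p = 0.0350) and had 0.29 in EZH2 A677G, which was not called (SE 0.102, edgeR adjusted p = 0.0741). The call in Y641F was lost in 4 of 11 other fits and in 5 of 6 with a replicate left out.

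Of the 10 genes listed with mitochondrial apoptosis and redox functions, 5 rose in EZH2 A677G and 3 in EZH2 Y641F. *BAX* (ENSG00000087088.21, chromosome 19, 48954815 to 48961798) encodes a pore-forming protein of the outer mitochondrial membrane. It had 52.4, 53.3 and 51.0 CPM in the WT line, 55.3, 64.0 and 56.6 in the Y641F line, 61.9, 66.6 and 66.0 in the A677G line and 53.2, 53.5 and 55.7 in the LOF line. The samples of both GOF lines were above those of WT. *BAX* rose by a log2 fold change of 0.31 in EZH2 A677G (SE 0.0513, edgeR adjusted p = 4.99e-05) and 0.16 in EZH2 Y641F (SE 0.0516, edgeR adjusted p = 0.0416). The Y641F call of *BAX* was lost with upper-quartile factors, with only the compared groups, with limma voom and in 4 of the 6 leave-one-out fits.

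*BBC3* (ENSG00000105327.18, chromosome 19, 47220822 to 47232766) encodes PUMA, a BH3-only protein that promotes apoptosis. It had 8.63, 9.47 and 8.30 CPM in the WT line, 11.2, 13.6 and 10.2 in the Y641F line, 12.3, 12.2 and 12 in the A677G line and 8.23, 9.35 and 9.90 in the LOF line. Every GOF sample exceeded every WT and LOF sample. It rose by 0.47 in EZH2 A677G (SE 0.105, edgeR adjusted p = 0.00230) and by 0.40 in EZH2 Y641F (SE 0.105, edgeR adjusted p = 0.0121). The Y641F call was lost in 3 of the 6 leave-one-out fits, where its lowest value was 0.28. For the LOF line it was 0.05 (SE 0.108).

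*PMAIP1* (ENSG00000141682.12, chromosome 18, 59899996 to 59904305) encodes NOXA, another BH3-only protein. It had 77.2, 82.3 and 82.7 CPM in the WT line, 75.2, 82.4 and 82.9 in the Y641F line, 80.3, 79.4 and 80.4 in the A677G line and 89.0, 88.4 and 82.6 in the LOF line. The WT and GOF samples overlapped, and 2 of 3 LOF samples were the highest of all. Its log2 fold change was -0.01 in both GOF lines (SE 0.0453 in each) and 0.10 in the LOF mutant (SE 0.0454, edgeR adjusted p = 0.510).

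*APAF1*, the scaffold of the apoptosome, had 51.5, 52.2 and 53.4 CPM in the WT line, 62.2, 56.9 and 59.3 in the Y641F line, 58.1, 61.3 and 58.4 in the A677G line and 52.7, 52.8 and 55.0 in the LOF line. All GOF samples were above all others. It rose by 0.18 in both GOF lines (SE 0.0475 in Y641F and 0.0476 in A677G, edgeR adjusted p = 0.0107 and 0.0118), and each call was lost in 2 of the 6 leave-one-out fits. *AEN*, an apoptosis-enhancing nuclease, had 94.8, 101 and 100 CPM in the WT line, 90.2, 117 and 112 in the Y641F line, 121, 118 and 121 in the A677G line and 106, 99.0 and 96.1 in the LOF line. Replicate 1 of Y641F was again the lowest sample, and the A677G samples were the highest with no overlap with WT. *AEN* rose in EZH2 A677G by 0.28 (SE 0.0557, edgeR adjusted p = 5.28e-04) and had 0.11 in EZH2 Y641F, which was not called.

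*CYFIP2*, which encodes a component of the WAVE regulatory complex, had 81.9, 76.8 and 75.7 CPM in the WT line, 72.8, 78.8 and 73.6 in the Y641F line, 83.4, 92.3 and 90.2 in the A677G line and 76.1, 80.1 and 86.5 in the LOF line. The A677G samples were above those of WT and Y641F. It rose by 0.18 in EZH2 A677G (SE 0.0489, edgeR adjusted p = 0.0131), a call lost without replicate 2 or 3 of WT or of A677G, and had -0.06 in EZH2 Y641F. The other genes of this role, *TP53I3*, *TRIAP1*, *FDXR* and *SPATA18*, were called in no comparison, with log2 fold changes of -0.11 to 0.37 in EZH2 Y641F and -0.11 to 0.39 in EZH2 A677G. *TP53I3*, a quinone oxidoreductase gene at 3.18 to 5.28 CPM, had 0.37 in Y641F and -0.11 in A677G.

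**Figure D4:**
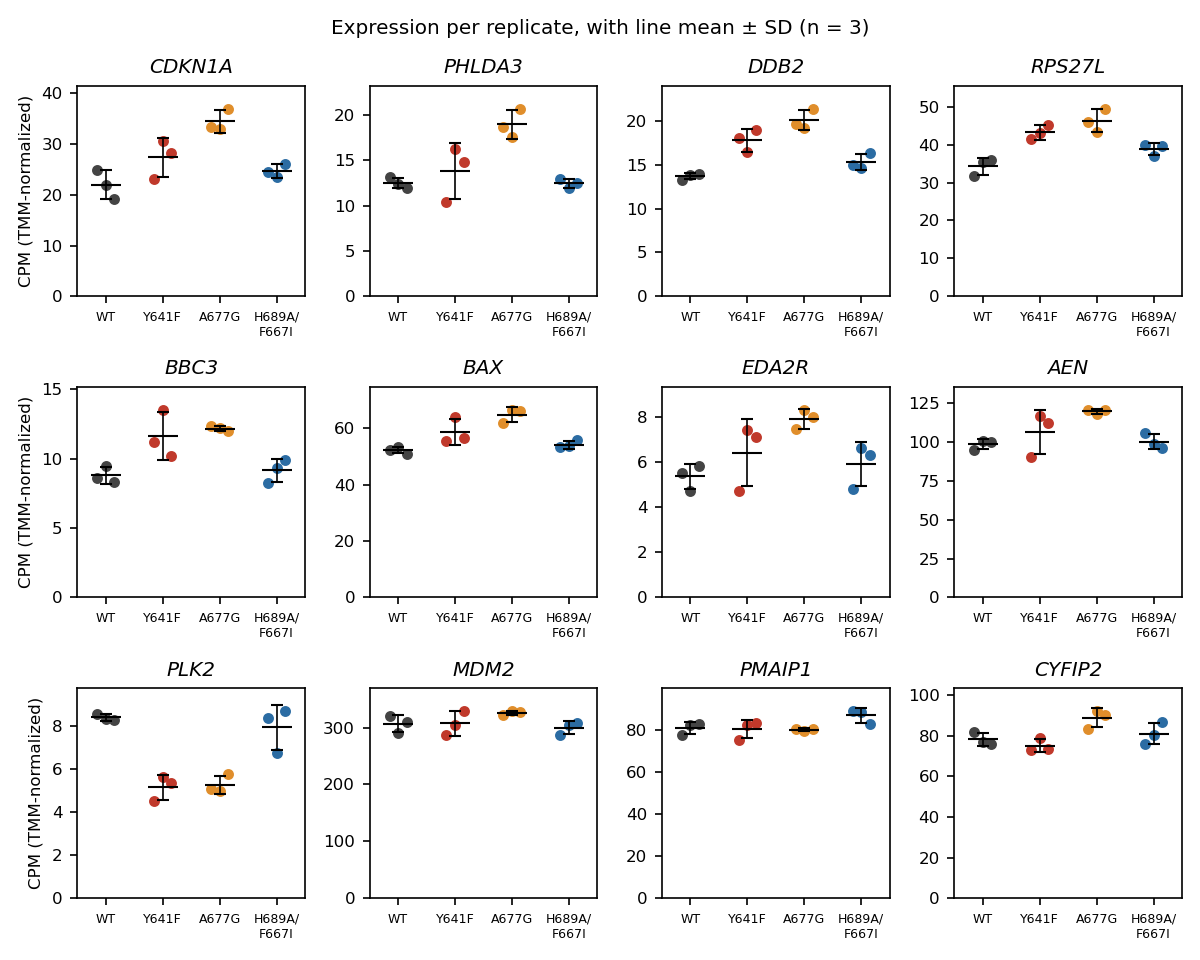
Expression in CPM (y axis, from 0) of 12 p53 target genes in the 3 replicates of each line (points), with the mean (horizontal line) and SD (error bars). All A677G points of *CDKN1A*, *PHLDA3*, *DDB2* and *EDA2R* lie above all WT points, *PLK2* is lower in both GOF lines, and *MDM2* and *PMAIP1* stay near their WT level.

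Among the death receptor and survival signalling genes, *PHLDA3*, *EDA2R* and *TNFRSF10B* rose in EZH2 A677G and 0 of 6 were called in EZH2 Y641F. *PHLDA3* (ENSG00000174307.7, chromosome 1, 201464278 to 201469237) encodes a PH-domain protein that inhibits AKT. It had 13.2, 12.3 and 12 CPM in the WT line, 10.4, 16.3 and 14.8 in the Y641F line, 18.7, 17.5 and 20.7 in the A677G line and 13.0, 12 and 12.5 in the LOF line. In Y641F, replicate 1 was the lowest of all samples while replicates 2 and 3 were above every WT sample. Its log2 fold change was 0.60 in EZH2 A677G (SE 0.104, edgeR adjusted p = 1.02e-04) and 0.14 in EZH2 Y641F (SE 0.107, edgeR adjusted p = 0.518).

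*EDA2R*, a receptor of the TNF receptor family on chromosome X, had 5.52, 4.74 and 5.82 CPM in the WT line, 4.71, 7.41 and 7.12 in the Y641F line, 7.45, 8.33 and 8.01 in the A677G line and 4.82, 6.62 and 6.33 in the LOF line. The pattern over the Y641F samples was the same, with replicate 1 lowest. It rose by 0.57 in EZH2 A677G (SE 0.144, edgeR adjusted p = 0.00769), a call lost without replicate 2 of WT. *TNFRSF10B*, the TRAIL receptor DR5, had 78.9, 77.1 and 78.5 CPM in the WT line, 73.0, 83.6 and 89.5 in the Y641F line, 89.7, 88.5 and 85.8 in the A677G line and 75.2, 69.3 and 73.7 in the LOF line. It rose by 0.17 in EZH2 A677G (SE 0.0510, edgeR adjusted p = 0.0270), a call lost with upper-quartile factors and in 5 of the 6 leave-one-out fits. All LOF samples were below all WT samples, with a log2 fold change of -0.10 that was not called. *FAS*, the death receptor of FAS ligand, had -0.33 in EZH2 Y641F and -0.09 in EZH2 A677G, *NINJ1* 0.08 and 0.09, and the stem cell factor gene *KITLG* -0.01 and 0.03, none of them called.

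All genes of the DNA repair and nucleotide supply group except *ASCC3* rose in EZH2 A677G, and 3 of the 5 rose in EZH2 Y641F. *DDB2* (ENSG00000134574.12, chromosome 11, 47214465 to 47239217) encodes a damage sensor of nucleotide excision repair. It had 13.3, 13.8 and 13.9 CPM in the WT line, 18, 16.4 and 18.9 in the Y641F line, 19.6, 19.2 and 21.4 in the A677G line and 15, 14.6 and 16.4 in the LOF line. The WT samples were the lowest of all, and all A677G samples were above every other sample. The log2 fold change was 0.55 in EZH2 A677G (SE 0.0795, edgeR adjusted p = 5.22e-06) and 0.38 in EZH2 Y641F (SE 0.0801, edgeR adjusted p = 0.00136). For the LOF line it was 0.16 (SE 0.0817, edgeR adjusted p = 0.615). Both calls held in every other fit, those with a replicate left out included.

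*RRM2B*, the p53-inducible subunit of ribonucleotide reductase, had 58.4, 59.7 and 69.4 CPM in the WT line, 69.9, 72.0 and 74.3 in the Y641F line, 69.8, 69.2 and 74.4 in the A677G line and 63.9, 67.5 and 65.0 in the LOF line. Replicate 3 of WT reached the lower end of the GOF samples. It rose by 0.21 in EZH2 Y641F (SE 0.0519, edgeR adjusted p = 0.00803) and 0.19 in EZH2 A677G (SE 0.0520, edgeR adjusted p = 0.0161). With a replicate left out *RRM2B* ran from 0.16 to 0.29 in Y641F and from 0.14 to 0.27 in A677G, and the calls were lost in 2 and 3 of the 6 fits, those without WT replicate 1 or 2 among them. *XPC*, the other damage sensor of the group, had 50.04, 50.6 and 53.4 CPM in the WT line, 55.2, 56.8 and 58.7 in the Y641F line, 56.5, 59.0 and 55.5 in the A677G line and 51.4, 52.9 and 52.9 in the LOF line. All GOF samples were above all others, by a small margin. It rose by 0.15 in both (SE 0.0477 in each, edgeR adjusted p = 0.0473 in Y641F and 0.0400 in A677G), and both calls were lost with upper-quartile factors, library totals or a minimum of 10 counts. In leave-one-out fits they were lost in 4 of 6 for Y641F and 5 of 6 for A677G.

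*POLH*, the translesion polymerase eta, had 43.4, 40.3 and 39.6 CPM in the WT line, 39.2, 43.8 and 44.4 in the Y641F line, 45.4, 46.6 and 49.6 in the A677G line and 37.9, 38.8 and 39.1 in the LOF line. A677G was above and the LOF mutant below all WT samples. It rose by 0.20 in EZH2 A677G (SE 0.0553, edgeR adjusted p = 0.0173), a call lost without replicate 2 or 3 of WT or replicate 3 of A677G, and the LOF value of -0.09 was not called. *ASCC3*, a helicase gene, had 0.07 with Y641F and 0.12 with A677G, not called.

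*RPS27L* (ENSG00000185088.14, chromosome 15, 63125872 to 63158021), which encodes a ribosomal protein of the small subunit that resembles RPS27, had 31.8, 35.4 and 35.8 CPM in the WT line, 41.4, 43.2 and 45.3 in the Y641F line, 46.1, 43.3 and 49.5 in the A677G line and 40.0, 37.1 and 39.7 in the LOF line. All mutant samples, those of the LOF line included, were above the WT samples. It rose by 0.43 in EZH2 A677G (SE 0.0586, edgeR adjusted p = 1.96e-06) and 0.33 in EZH2 Y641F (SE 0.0588, edgeR adjusted p = 1.31e-04), and both calls held in every other fit. Its LOF value was 0.18 (SE 0.0597, edgeR unadjusted p = 0.00464, adjusted p = 0.305). *ZMAT3*, also called WIG1, encodes a zinc finger protein that binds RNA. It had 24.1, 26.7 and 24.5 CPM in the WT line, 22.5, 27.4 and 32.5 in the Y641F line, 28.8, 28.1 and 28.4 in the A677G line and 23.2, 23.8 and 24.6 in the LOF line. The Y641F samples spanned the range of all others, and the log2 fold changes of 0.13 and 0.18 in Y641F and A677G were not called. The ubiquitin ligase adaptor gene *FBXO22* had 0.10 and 0.12, not called.

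In the LOF mutant, 0 members passed the threshold in edgeR's quasi-likelihood test, and 0 passed in the exact test, DESeq2, limma voom or any other fit tried. At an unadjusted p under 0.05 there were 2, *RPS27L* and *PMAIP1*, and 1184 of all genes. The log2 fold changes of the members ran from -0.10 for *TNFRSF10B* to 0.37 for *PLK3*.

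The GOF lines were then set against the LOF mutant, which like the EZH2 WT line carries an introduced allele, with Y641F and A677G weighted equally. In this comparison 14 members were higher in the GOF lines and 2 lower, while of all genes 12.6% were called, 3.81% higher and 8.75% lower. The higher members were led by *BBC3*, *PHLDA3*, *TP53INP1*, *CDKN1A* and *DDB2*, with log2 fold changes of 0.38, 0.37, 0.32, 0.31 and 0.30 (SE 0.0918, 0.0928, 0.0898, 0.0724 and 0.0693). *ZMAT3* was higher here, by 0.23 (SE 0.0712, edgeR adjusted p = 0.0283), a call lost in 5 of the 9 leave-one-out fits. *PLK2* was lower, by a log2 fold change of -0.60 (SE 0.106, edgeR adjusted p = 7.01e-05). The other lower member was *PMAIP1*, with -0.11 (SE 0.0390, edgeR adjusted p = 0.0460), a call lost in 6 of the 9 leave-one-out fits. The members' median was 0.12, and that of all genes 0.00, and 30 members had a value above 0, as did 51.6% of all genes. Every GOF sample lay above every LOF sample at 9 members and below at 2, where 5.16% and 8.77% of all genes did so. Leaving out replicate 1 or 2 of the LOF mutant left 10 or 9 called members, and without replicate 1 of Y641F 18 were higher and 1 lower. Over all genes, 1203 to 2105 were called with a replicate left out, against 1792 with all samples. *CDKN1A*, *PLK2*, *BAX*, *TNFRSF10B*, *PHLDA3*, *DDB2* and *POLH* were called in all 9 such fits. *PPM1D* was lost in 4 of them, *SESN1*, *TP53INP1*, *APAF1* and *AEN* in 2 each, and *BBC3* and *RPS27L* in 1 each.

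The GOF lines were also compared directly, EZH2 Y641F against EZH2 A677G. Here 1 member was called, while 0.0841% of all genes were, 0.0701% higher and 0.014% lower in Y641F. This was *CYFIP2*, lower in Y641F by a log2 fold change of -0.24 (SE 0.0487, edgeR adjusted p = 0.0255). Of the 35 members, 30 had a value below 0, that is, a lower level in Y641F, where 50% of all genes had a value above 0, and the median was -0.08. All Y641F samples lay below all A677G samples at 11 members, among them *CDKN1A*, with -0.33 (SE 0.0807, edgeR adjusted p = 0.141), and 4.86% of all genes did so. The reverse held at 1 member, *TP53I3*, and at 5.33% of all genes. Without replicate 1 of Y641F, 0 members were called and the members' median was -0.04. Without replicate 2 of Y641F, 5 members were called. Over all genes, 8 to 57 were called with a replicate left out, against 12 with all samples. At an unadjusted p under 0.05 there were 11 members and 985 of all genes.

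Members with and without a matching element were set side by side. In EZH2 A677G, 7 of the 16 with an element rose and 1 fell, with a median log2 fold change of 0.18, and 10 of the 19 without rose, with a median of 0.18. In EZH2 Y641F, 4 of the 16 rose and 1 fell, with a median of 0.07, and 5 of the 19 rose, with a median of 0.14. In the LOF mutant the medians were 0.06 and 0.03. Over all genes, whatever the letters near their starts, 2.07% rose and 6.48% fell with A677G and 2.09% rose and 5.59% fell with Y641F. Called members were thus found in both kinds.

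Other genes of the pathway were read from lists that were written down with earlier results of these counts known. Of 29 regulators of p53, 26 were tested. In EZH2 Y641F, *CHEK2*, the checkpoint kinase, and *HIPK2*, a kinase that phosphorylates p53, rose by 0.19 and 0.20 (SE 0.0508 and 0.0536, edgeR adjusted p = 0.0136 and 0.0154). *SMYD2*, a lysine methyltransferase that acts on p53, had -0.17 in EZH2 Y641F and -0.16 in EZH2 A677G (SE 0.0524 in each, edgeR adjusted p = 0.0321 and 0.0470) and was the 1 regulator called in A677G. The p53 inhibitor gene *MDM4* had 0.03, -0.10 and -0.01 in Y641F, A677G and the LOF mutant and was not called. Among all genes, 2.09% rose and 5.59% fell with Y641F, and 2.07% rose and 6.48% fell with A677G.

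A further 93 genes described as p53 targets were listed, and 71 were tested. Of these, 3 rose and 5 fell in EZH2 Y641F, and 4 rose and 5 fell in EZH2 A677G, with medians of 0.01 and 0.00. Over all genes 2.09% rose and 5.59% fell with Y641F, and 2.07% rose and 6.48% fell with A677G. With LOF, 0 were called, beside 0.301% of all genes. The largest changes in EZH2 Y641F were those of *FAM13C*, *TSPAN11*, *DGKA* and *CMBL*, with log2 fold changes of -1.04, -0.98, -0.72 and 0.38. In EZH2 A677G they were those of *THSD1*, *TSPAN11*, *SLC12A4* and *EPHA2*, with -1.05, -0.97, 0.35 and -0.34.

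Cell cycle genes that p53 represses through p21 and the DREAM complex were all tested, 36 in number. In EZH2 Y641F 1 rose, the kinesin gene *CENPE*, by 0.12, and in EZH2 A677G 1 rose, the cyclin gene *CCNB2*, by 0.15, and 0 fell in either. The medians of these genes were 0.03 in both. The share of all genes was 2.09% higher and 5.59% lower with Y641F, and 2.07% higher and 6.48% lower with A677G. *SESN2* can also be induced by the stress factor ATF4, and 16 of 18 genes of that response were tested. In EZH2 Y641F the amino acid transporter gene *SLC7A5* fell by 0.19 on the log2 scale. In EZH2 A677G *SLC7A5* fell by 0.13 and the cystine transporter gene *SLC7A11* rose by 0.15. The latter rose by 0.32 in the LOF line. There, 0 of the p53-DREAM genes, 0 of the p53 regulators and 0.301% of all genes were called. The medians of the ATF4 list were -0.08 in Y641F and -0.05 in A677G.

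Exons of *CDKN1A*, *SESN1*, *MDM2*, *TP53INP1*, *BBC3*, *APAF1*, *CYFIP2*, *TNFRSF10B*, *XPC* and *POLH* overlap exons of a gene on the opposite strand in GENCODE, and those of *PHLDA3* a noncoding gene on its own strand. *BBC3* also overlaps a microRNA gene on its own strand, and *MDM2* a processed pseudogene on its own strand over 439 bases. Opposite-strand overlaps are also annotated for *PLK3*, *TP53I3*, *FAS*, *KITLG* and *FBXO22*, at *FBXO22* over 1918 bases with *NRG4*. *FAS* overlaps exons of *STAMBPL1* on its own strand over 166 bases. The kit keeps strand, but the strand setting of the counting is not given in the sources used here.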

How the data were processed

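RNA-Seq was analysed from 12 samples of 4 HEK293T lines. Per the study's methods, the authors made TruSeq Stranded mRNA libraries, trimmed reads with Trim Galore, aligned them to GRCh38 with STAR and quantified them with Salmon 1.2.0 and Gencode. The deposited table holds whole-number counts per gene. How Salmon estimates became counts, and which genes were filtered, is not given in the sources used here. The authors' own test was edgeR's exact test.

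From the deposited counts, 175 genes at 0 in every replicate of a line were left out, and 14263 genes were fitted with edgeR 4.0.16 (R 4.3.3). TMM factors (0.982 to 1.02), 1 coefficient per line over all 12 samples, and the quasi-likelihood test were used, with Benjamini-Hochberg adjustment over all genes and a threshold of 0.05. Library totals were 32137700 to 44562413 counts. Alternatives were the edgeR exact test, DESeq2 1.42.0, limma 3.58.1 voom, upper-quartile factors or library totals, genes at 0 kept, at least 10 counts per gene and sample, a fit of only the groups compared, a replicate block, removal of the GC trend, and leaving out each replicate. The fit was tested on simulated data.

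The members and the other gene lists were chosen with earlier results of these data known. Values in every sample are given for members called in any comparison and for *CDKN1A*, *MDM2*, *PMAIP1*, *ZMAT3*, *BAX* and *BBC3*, and other members are given by range and counts. Of p53 regulators, *MDM4* and any called against EZH2 WT are named, and 1 further gene that the rule names is not reported here. Of the other p53 targets, the 4 with the largest change among those called in each GOF comparison are named, and up to 3 called genes of the p53-DREAM and ATF4 lists. Levels per kilobase, positions and elements used GENCODE v44 and hg38.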

Additional observations from a re-analysis of the deposited data

Results flagged for a closer look

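*CYFIP2* differed between the GOF lines by the direct test, with a log2 fold change of -0.24 in EZH2 Y641F against EZH2 A677G (edgeR adjusted p = 0.0255, Y641F below A677G in 3 of 3 samples). The call was kept in 8 of 11 other fits and in 2 of 6 with a replicate left out.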

How the results depend on the processing

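Against EZH2 WT, 10 members were called with Y641F and 18 with A677G, and leaving out 1 replicate gave 4 to 14 and 10 to 16. In the LOF mutant the count was 0 to 0 with a replicate left out. For the GOF lines against the LOF mutant, 16 members became 9 to 19, and for Y641F against A677G 1 became 0 to 5. Over all genes the counts with a replicate left out were 703 to 1232 in Y641F, 825 to 1042 in A677G, 11 to 36 in the LOF mutant, 8 to 57 for Y641F against A677G and 1203 to 2105 for the GOF lines against the LOF mutant. Among the genes named with values in every sample, no log2 fold change called in the reported fit or in an alternative changed sign between them. Values that were not called did cross 0, such as *ZMAT3* in Y641F (-0.01 to 0.26), *MDM2* in Y641F (-0.05 to 0.05) and *BBC3* in Y641F against A677G (-0.19 to 0.02). In the LOF mutant 23 of the 43 genes called were lower. The lower share was 64.5% of calls with library totals and 82.2% with genes at 0 in a line kept. With a replicate left out it was 35.3% to 60%. For the LOF mutant, 43 genes became 76 with the exact test, 169 with genes at 0 kept, 86 with only the compared groups and 99 with limma voom. For Y641F against A677G, 12 genes became 23 with the exact test, 19 with DESeq2 and 178 with genes at 0 kept. The 1 member called there became 4, 3 and 4 under these settings and 0 with library totals, only the compared groups or limma voom. The cause was not tested.

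Samples with the same replicate number did not deviate together (correlations of -0.0557 to 0.0501 over 18 pairs, 0 above 0.1). The labels do not say whether they were prepared as matched sets, and these values cannot tell. With the replicate block, 3 members were called for Y641F against A677G, and 10, 18, 0 and 17 for Y641F, A677G and the LOF mutant against EZH2 WT and the GOF lines against the LOF mutant.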
